A study of Mus musculus with 7 samples.

Results

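Cholesterol synthesis, uptake and efflux were examined through 32 mouse genes in mature white adipocytes, taken by symbol from a list of their roles that was drawn up with earlier results of these data known. They comprise 18 enzymes of sterol synthesis, 4 genes of SREBP2 control, 4 genes of uptake and intracellular transport, 5 genes of the liver X receptors (LXRs) and efflux, and the esterifying enzyme Soat1. All 32 were found among the 57010 gene identifiers of the count table, and all 32 passed the filter on low counts that left 17039 genes for testing. RNA had been sequenced from adipocytes freed by collagenase from the perigonadal fat of male littermates aged 20 weeks on standard chow. FFA2 fl/fl controls (n = 3 libraries) carried the floxed alleles of Ffar2, the short-chain fatty acid receptor FFA2, without Cre. Adipoq-F2-KO mice (n = 4 libraries) carried the same alleles with Cre driven by the adiponectin promoter, so the deletion was directed to adipocytes and Ffar2 in other cells of the fat pad was left intact by design. The labels number the libraries but do not state that each came from its own mouse, so p-values measure only the spread between these libraries.

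Cells make cholesterol from acetyl-CoA through mevalonate, the isoprenoids, squalene and lanosterol, and most enzymes of this path are transcribed under SREBP2, a membrane-bound factor that SCAP carries to the Golgi when sterols are low and that INSIG proteins hold in the endoplasmic reticulum when sterols are high. LXRs act in the opposite direction. They bind oxysterols and induce the efflux carriers ABCA1 and ABCG1, apolipoprotein E and MYLIP, a ubiquitin ligase that promotes the degradation of lipoprotein receptors. White adipocytes hold a large store of free cholesterol at the lipid droplet and plasma membrane, much of it taken up from lipoproteins.

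The start sites of the synthesis genes share a sequence feature that the choice of genes did not use. RefSeq promoter windows of the GRCm38.p6 assembly, 250 bases before to 50 after each gene's start, were matched by symbol for 26 of the 32 genes. No window was matched for Fdps, Fdft1, Sqle, Stard4, Npc1 and Abcg1. The CCAAT box, the letters CCAAT on either strand (ATTGG when read on the other), bound by the factor NF-Y, was present in 14 of the 15 matched synthesis enzymes (93.3%), all but Acat2. It was present in 3 of 4 genes of SREBP2 control and in 0 of the 4 matched LXR and efflux genes, Abca1, Apoe, Nr1h2 and Nr1h3. It was also present in Npc2, in the LXR target Mylip and in Soat1, and in 26 of 49 matched genes of the wider pathways (53.1%). Across all 27025 genes with a window the share was 41.1%, and across the 11363 tested genes with one it was 42.2%. The core of the sterol regulatory element, searched as TCACNCCA on both strands, was present in Hmgcs1, Msmo1, Srebf2 and Apoe, 4 of 26 members (15.4%), against 4.97% of all windows. The 2 motifs shared no bases in any member's window. A match is a run of letters and was not tested for binding. Stretches upstream of 4 starts are shown. Those of Srebf2, Hmgcs1 and Msmo1 carry both motifs side by side. Those of Srebf2 and Cyp51 carry a motif, and the libraries of these genes did not overlap between genotypes. Each runs 5′ to 3′ on the gene's own strand, with the motifs in capitals: Srebf2 at chr15:82147089-82147153 (plus strand), Hmgcs1 at chr13:119690171-119690320 (plus strand), Msmo1 at chr8:64733619-64733758 (minus strand) and Cyp51 at chr5:4104698-4104787 (minus strand).
Srebf2: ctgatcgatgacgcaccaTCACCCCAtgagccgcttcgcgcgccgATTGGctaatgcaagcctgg
Hmgcs1: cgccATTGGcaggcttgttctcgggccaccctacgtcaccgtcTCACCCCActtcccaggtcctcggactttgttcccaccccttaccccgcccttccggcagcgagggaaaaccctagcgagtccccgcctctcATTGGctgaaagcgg
Msmo1: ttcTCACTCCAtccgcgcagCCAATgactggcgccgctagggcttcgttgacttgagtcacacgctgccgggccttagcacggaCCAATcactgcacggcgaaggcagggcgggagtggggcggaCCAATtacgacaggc
Cyp51: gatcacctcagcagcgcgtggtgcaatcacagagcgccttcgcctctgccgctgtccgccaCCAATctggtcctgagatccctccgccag
In Srebf2 the sterol element and the CCAAT box began 27 bases apart. In Msmo1 the sterol element was followed by 3 CCAAT boxes, and in Cyp51 the stretch held 1 CCAAT box and no match to TCACNCCA. Sterol elements with other letters were not searched. Nr1h3, whose libraries did not overlap between genotypes either, had neither motif in its window, and its stretch is not shown.

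The targeted gene was checked first. Ffar2 stood at 37.5, 33.9 and 32.0 normalized CPM (CPM are counts scaled to a common library total, here with TMM factors) in FFA2 fl/fl libraries 1 to 3, called the controls below, and at 1.68, 1.15, 1.33 and 2.58 in Adipoq-F2-KO libraries 1 to 4, called the knockouts. The log2 fold change, Adipoq-F2-KO over FFA2 fl/fl as throughout, was -4.36 (SE 0.22, adjusted p = 7.97e-06, edgeR's quasi-likelihood test). Total counts lay between 30478997 and 39992605 per library. The mitochondrial share of the counts was 4.41% to 5.77% in FFA2 fl/fl and 6.61% to 10.3% in Adipoq-F2-KO libraries, without overlap, and Adipoq-F2-KO library 4 held both the highest mitochondrial share and the highest share (6.76%) of a single identifier without a symbol, ENSMUSG00000119584. Adipocyte markers were abundant, with Adipoq between 2419 and 3762 normalized CPM in all 7 libraries. Between genotypes the summed normalized CPM of 15 adipocyte markers was 68634.5 to 75509 in FFA2 fl/fl and 54807 to 68729 in Adipoq-F2-KO libraries, with 13 of 15 log2 fold changes below 0. Of 22 macrophage markers, 19 lay above 0, with sums of 743 to 902 against 1023 to 1193. edgeR called 2 of them higher (Cd68 and Lyz2), against 1.02% of all tested genes. DESeq2 called more of these lists, 12 macrophage, 4 endothelial, 1 fibroblast progenitor and 2 male germ cell markers higher and 3 adipocyte markers lower. The share called among all genes with an adjusted p from that tool was 6.54%. All 10 endothelial markers lay above 0 (sums 1077 to 1421 against 1494 to 2356), as did 9 of 10 fibroblast progenitor markers (855 to 1141 against 1222 to 1471) and 5 of 5 erythroid markers (97.6 to 223 against 209 to 372). Mesothelial markers were at 9.87 to 25.9 against 7.52 to 11.0 and T and B cell markers at 2.03 to 20.5 against 1.91 to 12.3, while neutrophil markers reached at most 5.01 with Ly6g at 0 in all libraries. Male germ cell and epididymis markers summed to 0.0586 to 4.41 against 2.76 to 137, the highest in Adipoq-F2-KO library 2. The part of these other cells in the results below was not tested, and in bulk libraries fewer cells of a type and less RNA per cell cannot be told apart.

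None of the 32 cholesterol genes passed the test between genotypes. Calls were made where edgeR's p, after Benjamini-Hochberg adjustment across all 17039 genes, was under 0.05, and 0 of 32 genes were called in either direction, with the smallest adjusted p at 0.107 (Fdft1). Over all tested genes the test called 1.02%. At an unadjusted p under 0.05, edgeR listed 7 of 32 (21.9%), Cyp51, Srebf2 and Stard4 higher and Fdft1, Insig2, Nr1h3 and Apoe lower in Adipoq-F2-KO, against 17.9% of all tested genes. DESeq2 on the same genes called 3 of 32 (9.38%), Stard4 higher and Fdft1 and Nr1h3 lower, against 6.54% of its genes. The same 3 were called by edgeR when every gene with at least 1 count was kept, a setting that called 4.92% of genes. DESeq2 given every gene with a count, which called 4.96%, kept Fdft1 and Nr1h3 but not Stard4 (adjusted p = 0.0560). For 5 of 32 genes (15.6%) the normalized CPM of the 2 genotypes had no overlap, against 17.6% of all tested genes. Of the log2 fold changes, 12 lay above 0 and 20 below, with a median of -0.05, beside 8596 above and 8443 below and a median of 0.0037 over all tested genes. The median size was 0.15 for the 32 genes and 0.23 for all tested genes. The 95% interval of the log2 fold change, taken from its SE and the degrees of freedom of the fit, lay within -1 and 1 for 31 of the 32 genes, so that a doubling or a halving was outside the interval for each of them except Stard4, and within -0.5 and 0.5 for 16.

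**Figure D1:**
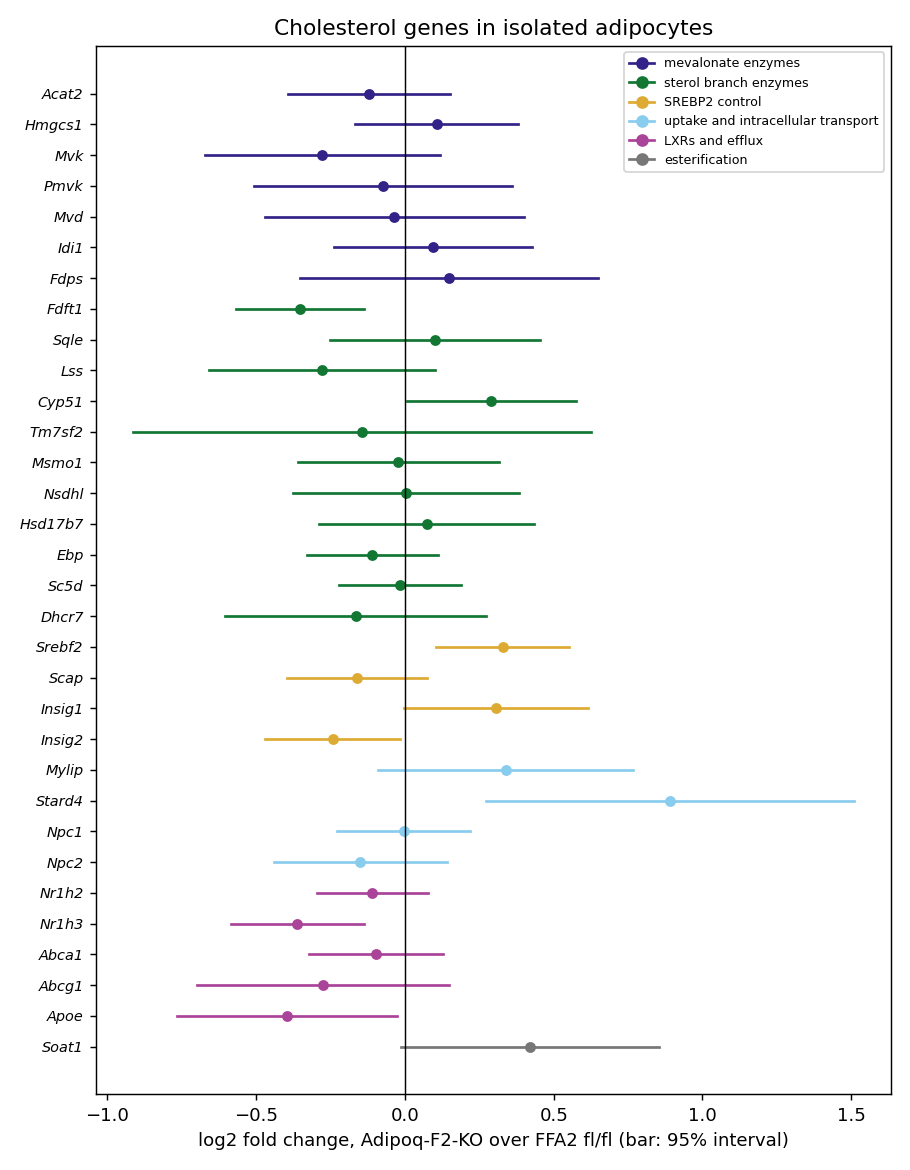
Log2 fold change of the 32 cholesterol genes (horizontal axis, Adipoq-F2-KO over FFA2 fl/fl; points, edgeR estimates; bars, 95% intervals), colored by role and listed in pathway order. The intervals of 25 genes include 0, and those of Cyp51, Srebf2 and Stard4 lie above and those of Fdft1, Insig2, Nr1h3 and Apoe below it, although none passes the adjusted test.

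The 7 enzymes from acetyl-CoA to farnesyl diphosphate showed no called difference. They are Acat2 (the cytosolic thiolase), Hmgcs1 (HMG-CoA synthase), Mvk and Pmvk (the mevalonate kinases), Mvd (the decarboxylase), Idi1 (the isomerase of isopentenyl diphosphate) and Fdps (farnesyl diphosphate synthase). Log2 fold changes ran from -0.28 for Mvk to 0.15 for Fdps, 3 above 0 and 4 below, and the smallest adjusted p was 0.451 (edgeR). As a ratio of the highest to the lowest library, the widest spread was that of Fdps (2.02), with 32.3 normalized CPM in Adipoq-F2-KO library 1 and 16.0 in library 2. Leaving out a library took Mvk from -0.45 (without Adipoq-F2-KO library 1) to -0.17 (without library 4). The summed level of these genes was 250.5 to 282 normalized CPM in FFA2 fl/fl and 233 to 329 in Adipoq-F2-KO libraries, so that the knockout libraries enclosed the controls.

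Among the 11 enzymes of the sterol branch, Fdft1 and Cyp51 were the ones whose genotypes did not overlap, and they lay on opposite sides of 0. Fdft1 (ENSMUSG00000021273), the squalene synthase that commits farnesyl diphosphate to sterols, stood at 66.0, 75.1 and 84.9 normalized CPM in the controls and at 57.1, 58.9, 58.8 and 61.2 in the knockouts. The knockout libraries were tightly grouped below the lowest control, and the controls were spread. Means were 75.4 ± 9.46 (SD, n = 3) and 59.0 ± 1.70 (SD, n = 4). The log2 fold change was -0.35 (SE 0.098, 95% interval -0.57 to -0.14), with an adjusted p of 0.107 by edgeR and 0.0375 by DESeq2. In the count table's own coordinates the gene lies on chromosome 14 from 63382599 to 63417027. In the GENCODE vM21 annotation, 774 of its exon bases lie opposite those of Ctsb, the lysosomal protease cathepsin B, which stood at 1576 to 1869 normalized CPM with a log2 fold change of -0.01 (SE 0.092).

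Cyp51 (ENSMUSG00000001467), the lanosterol demethylase, on chromosome 5 from 4131145 to 4154746, stood at 26.2, 26.6 and 27.2 normalized CPM in the controls and at 34.6, 29.0, 27.6 and 39.1 in the knockouts. Here the controls were tightly grouped, and knockout libraries 1 and 4 stood above the rest while library 3 lay next to the controls. Means were 26.6 ± 0.509 (SD, n = 3) and 32.6 ± 5.30 (SD, n = 4). The log2 fold change was 0.29 (SE 0.13, 95% interval 0.0062 to 0.57) with an edgeR adjusted p of 0.271, and it was 0.19 without Adipoq-F2-KO library 4.

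The other 9 enzymes of the branch were Sqle (squalene epoxidase), Lss (lanosterol synthase), Tm7sf2 and Dhcr7 (sterol reductases), Msmo1 (the methylsterol monooxygenase), Nsdhl and Hsd17b7 (which remove and reduce groups on the sterol ring), Ebp (the sterol isomerase) and Sc5d (the desaturase). All 9 overlapped between genotypes, and their log2 fold changes ran from -0.28 for Lss to 0.10 for Sqle. Lss ran from -0.43 without Adipoq-F2-KO library 1 to -0.15 without FFA2 fl/fl library 1, and was -0.16 without Adipoq-F2-KO library 2. Tm7sf2, the least abundant enzyme per length, had the widest interval, -0.92 to 0.63, with 2.10 to 5.54 normalized CPM over the 7 libraries. Sc5d had the narrowest, -0.22 to 0.19, with 108 to 127 normalized CPM.

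**Figure D2:**
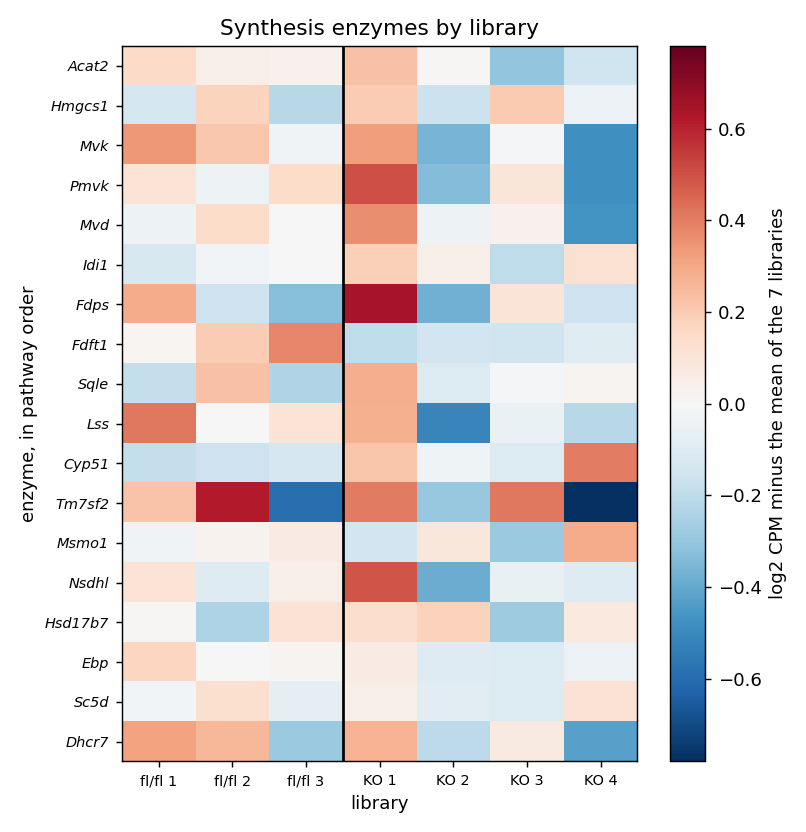
Each of the 18 synthesis enzymes (rows, in pathway order) in each of the 7 libraries (columns, controls left of the line), as log2 normalized CPM minus the gene's mean over the libraries. Adipoq-F2-KO library 1 holds the highest value for 7 of 18 enzymes, and libraries 3 and 4 hold the lowest for 6 and 5.

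The mean level of the enzymes differed more among the knockout libraries than between genotypes, although Fdft1 and Cyp51 taken alone did not overlap. Over all 18 the median log2 fold change was -0.03, with 7 above 0 and 11 below. The mean of log2(CPM + 1) over the enzymes was 4.67, 4.65 and 4.55 in the controls and 4.81, 4.44, 4.55 and 4.47 in the knockouts. The controls thus lay inside the range of the knockouts, whose top was library 1.

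The 4 genes of SREBP2 control lay on both sides of 0. Srebf2 (ENSMUSG00000022463), which encodes SREBP2 and whose upstream stretch is printed above, stood at 47.7, 58.0 and 50.1 normalized CPM in the controls and at 64.5, 68.5, 58.7 and 69.2 in the knockouts. All knockout libraries stood above all controls, although knockout library 3 and control library 2 differed by less than 1 normalized CPM. It had a log2 fold change of 0.33 (SE 0.10, 95% interval 0.10 to 0.55), with an adjusted p of 0.135 by edgeR and 0.0556 by DESeq2. The count table places it on chromosome 15 from 82031382 to 82089580.

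Insig1 (ENSMUSG00000045294), a retention protein that is itself a target of SREBP2, stood at 139, 122 and 120.1 normalized CPM in the controls and at 198, 126, 141 and 162 in the knockouts. The highest value was in knockout library 1, as for 7 of the enzymes, and library 2 lay among the controls. Its log2 fold change was 0.31 (SE 0.14, 95% interval -0.0032 to 0.61, edgeR adjusted p = 0.286), and 0.17 once knockout library 1 was left out. Insig2, the second retention protein, lay on the other side at -0.24 (95% interval -0.47 to -0.015, edgeR adjusted p = 0.253), with 48.1 to 61.9 normalized CPM in the controls and 44.2 to 49.9 in the knockouts, and was -0.16 without FFA2 fl/fl library 1. Scap, the escort, was at -0.16 (95% interval -0.40 to 0.074).

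Stard4 had the largest log2 fold change of the 32 genes. Stard4 (ENSMUSG00000024378), a soluble carrier that moves cholesterol between membranes and an SREBP2 target, stood at 5.07, 3.98 and 4.69 normalized CPM in the controls and at 6.07, 9.30, 5.70 and 13.0 in the knockouts. Every knockout library lay above every control, libraries 1 and 3 by little and libraries 2 and 4 by much. Means were 4.58 ± 0.553 (SD, n = 3) and 8.52 ± 3.41 (SD, n = 4). Its log2 fold change was 0.89 (SE 0.28, 95% interval 0.27 to 1.51), with an adjusted p of 0.142 by edgeR and 0.0421 by DESeq2 on the same genes. Without Adipoq-F2-KO library 4 it was 0.62. The gene is on chromosome 18 from 33332408 to 33346915 in the count table.

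Mylip, the LXR-induced ligase, stood at 55.3, 70.7 and 67.1 normalized CPM in the controls and at 72.6, 66.1, 67.2 and 120.0 in the knockouts. Knockout library 4 stood alone, and the other knockouts overlapped the controls. Its log2 fold change was 0.34 (SE 0.19, edgeR adjusted p = 0.389) with all 7 libraries, and 0.093 once knockout library 4 was left out. The 2 genes of cholesterol release from the lysosome lay near 0. Npc1, the membrane protein, was at -0.0041 (95% interval -0.23 to 0.22). Npc2, the soluble partner and the second most abundant member per length, stood at 564, 492 and 521 normalized CPM in the controls and at 529, 421, 561 and 384 in the knockouts, with a log2 fold change of -0.15 (95% interval -0.44 to 0.14).

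**Figure D3:**
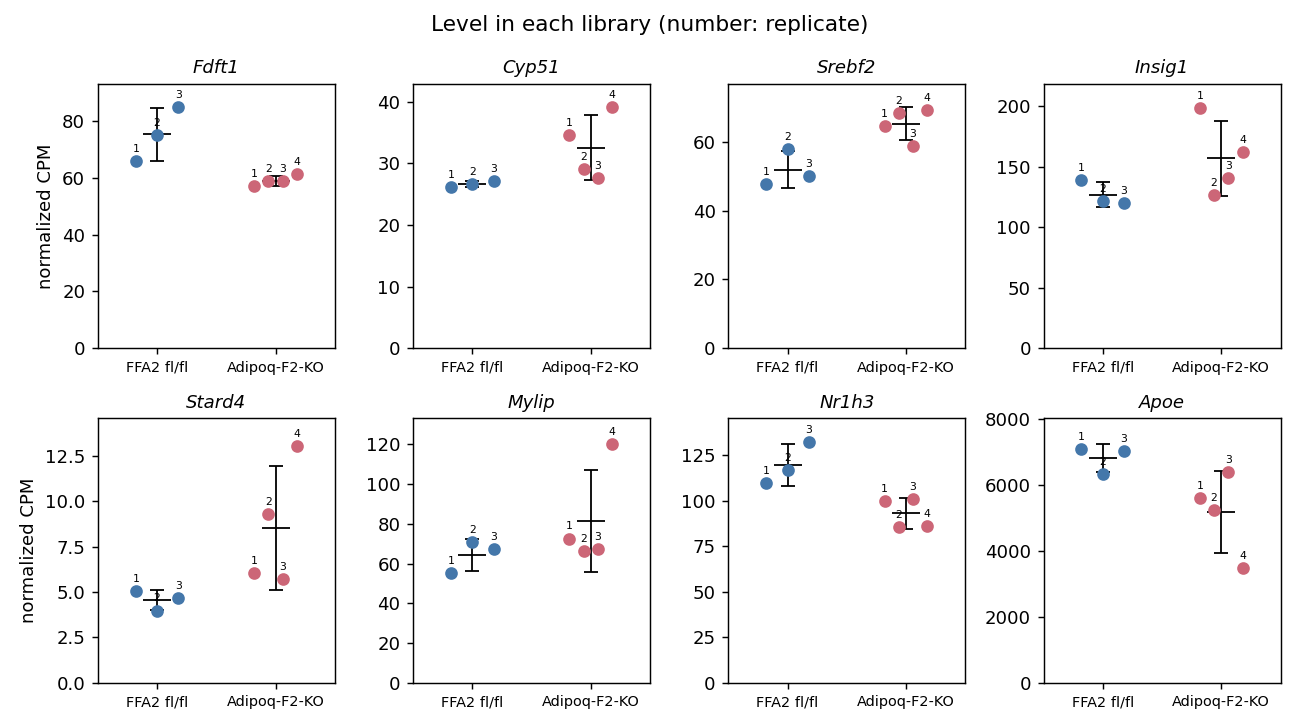
Normalized CPM (vertical axes, from 0) of 8 cholesterol genes in each library, numbered by replicate, with the mean and SD of each genotype in black. Fdft1 and Nr1h3 lie lower in every knockout than in every control, and Cyp51, Srebf2 and Stard4 lie higher. Knockout library 4 is the highest library for Mylip (120.0) and Stard4 (13.0) and the lowest for Apoe (3484).

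All 5 LXR and efflux genes had log2 fold changes below 0, and none was called by edgeR. Their median was -0.27, beside -0.28 for the 15 adipocyte markers. The median was -0.13 without FFA2 fl/fl library 1, -0.14 without Adipoq-F2-KO library 4 and -0.40 without Adipoq-F2-KO library 3. Nr1h3 (ENSMUSG00000002108), which encodes LXRα, stood at 109.9, 117 and 132 normalized CPM in the controls and at 99.5, 85.3, 101 and 86.0 in the knockouts. The knockouts lay below the controls without overlap. Means were 119.5 ± 11.3 (SD, n = 3) and 93.0 ± 8.50 (SD, n = 4). This gave a log2 fold change of -0.36 (SE 0.10, 95% interval -0.58 to -0.14), with an adjusted p of 0.108 by edgeR and 0.0313 by DESeq2. The count table places it on chromosome 2 from 91014406 to 91033179. Nr1h2, which encodes LXRβ, was at -0.11 (95% interval -0.30 to 0.076).

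Apoe (ENSMUSG00000002985), the apolipoprotein that carries exported cholesterol and the most abundant member, stood at 7090, 6339 and 7037 normalized CPM in the controls and at 5614, 5248, 6407 and 3484 in the knockouts. Knockout library 3 overlapped the controls and library 4 was the lowest. The log2 fold change was -0.39 (SE 0.17, 95% interval -0.76 to -0.025, edgeR adjusted p = 0.253), and -0.24 without Adipoq-F2-KO library 4, which also held the lowest Adipoq (2419). Abca1, the carrier that loads lipid-poor apolipoprotein, stood at 530.3, 551 and 589 normalized CPM in the controls and at 475, 598, 479 and 531 in the knockouts. Its genotypes overlapped, and its log2 fold change was -0.10 (95% interval -0.32 to 0.13). Abcg1, the carrier that serves high-density lipoprotein, was at -0.27 (95% interval -0.70 to 0.15), with 51.2 to 84.2 normalized CPM in the controls and 39.9 to 70.9 in the knockouts. The value was -0.14 once knockout library 4 was left out, and -0.092 and -0.43 once control library 1 or 3 was.

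Soat1, which esterifies cholesterol for storage, was the least abundant member per length. It stood at 7.32, 5.97 and 6.27 normalized CPM in the controls and at 10.3, 7.59, 6.58 and 10.4 in the knockouts. Knockout library 3 overlapped the controls. Its log2 fold change was 0.42 (SE 0.20, 95% interval -0.014 to 0.85, edgeR adjusted p = 0.295).

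Levels were also divided by the summed length of a gene's annotated exons. This need not equal the length of a single transcript, so ranks between genes are approximate. The divided levels spanned from 0.795 normalized CPM per kb for Soat1 to 2754 for Apoe, as means over the 7 libraries. After Apoe came Npc2 at 91.2, Abca1 at 51.7, Insig1 at 46.6 and Nr1h3 at 41.5 CPM per kb. No synthesis enzyme reached these. The enzymes ran from 0.870 for Tm7sf2 to 26.6 for Pmvk, followed closely by Hmgcs1 at 24.1 and Sc5d at 23.9 CPM per kb, whose libraries overlapped once divided by length. Thus Apoe, Npc2, Abca1, Insig1 and Nr1h3 headed the list in both genotypes. Other genes of the same roles did not, with Insig2 at 14.5, Abcg1 at 8.39 and Npc1 at 3.57 CPM per kb, below Pmvk, Hmgcs1 and Sc5d. The shift of any gene between genotypes was small beside the range between genes.

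**Figure D4:**
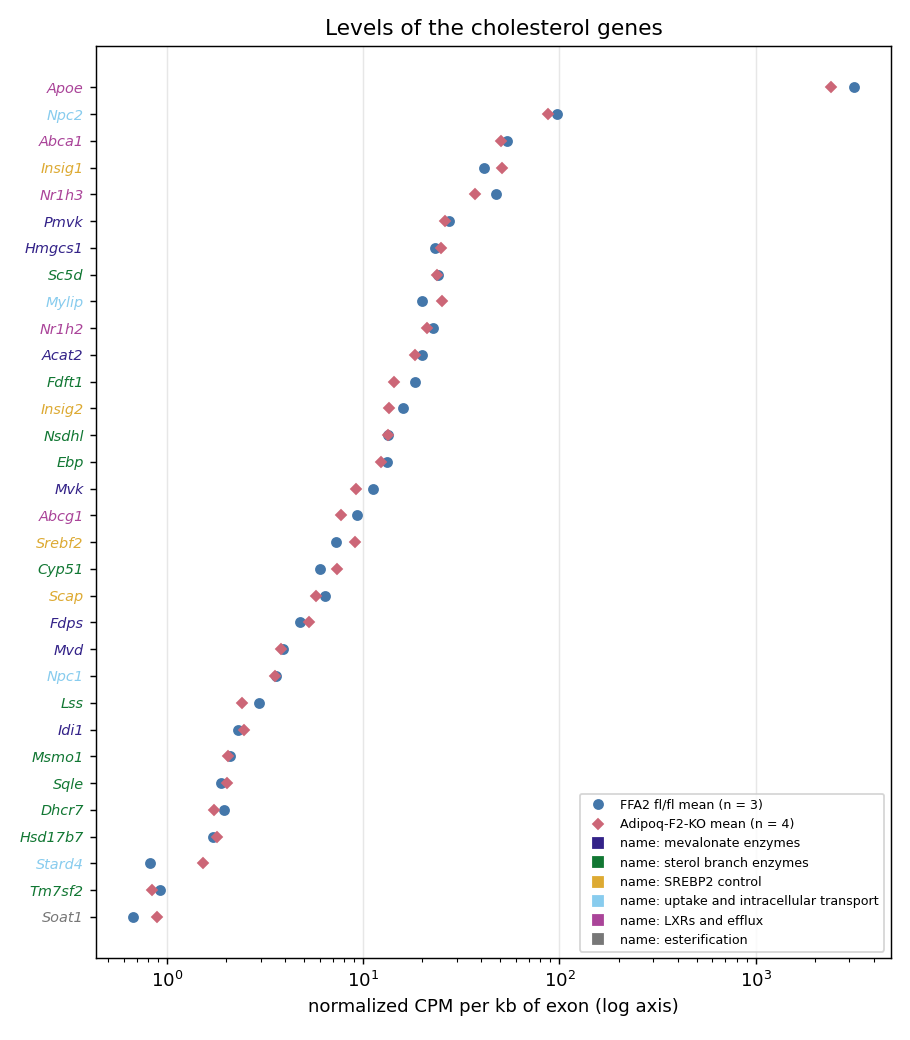
Mean normalized CPM per kb of exon (horizontal log axis) of the 32 cholesterol genes in FFA2 fl/fl (circles, n = 3) and Adipoq-F2-KO (diamonds, n = 4) libraries, sorted by level, with names colored by role. Apoe stands at 3191 and 2427 CPM per kb in the 2 genotypes, and the widest relative gap between the symbols is that of Stard4 (0.820 and 1.53).

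Synthesis was then set against efflux within each library, as the mean of log2(CPM + 1) over the 18 enzymes minus that over the 5 LXR and efflux genes. The difference was -3.61, -3.54 and -3.66 in the controls and -3.18, -3.55, -3.58 and -3.28 in the knockouts. Knockout libraries 1 and 4 stood above the controls, and libraries 2 and 3 lay among them. Genotype means were -3.60 ± 0.058 (SD, n = 3) and -3.40 ± 0.20 (SD, n = 4), a difference of 0.20 against a pooled SD of 0.16, so that the genotypes overlapped. The efflux side alone was 8.27, 8.19 and 8.20 in the controls and 8.00, 8.00, 8.13 and 7.75 in the knockouts. It averages the 5 LXR and efflux genes and lay below the controls in all 4 knockout libraries, whereas the enzymes overlapped. Among these genes the receptor gene Nr1h3 did not overlap between genotypes, whereas Nr1h2, Abca1, Abcg1 and Apoe each did when taken alone. With Abca1, Abcg1 and Apoe as the efflux side, the genotype means of the difference lay 0.21 apart. Knockout library 1 combined the highest enzyme mean (4.81) with an efflux mean (8.00) below the controls. Knockout library 4 had the lowest efflux mean (7.75), with an enzyme mean (4.47) below the controls too. Summed adipocyte markers were lower in the Adipoq-F2-KO libraries too, and their part in the efflux values was not tested. No p is given for these scores, because the genes were chosen with earlier results known.

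**Figure D5:**
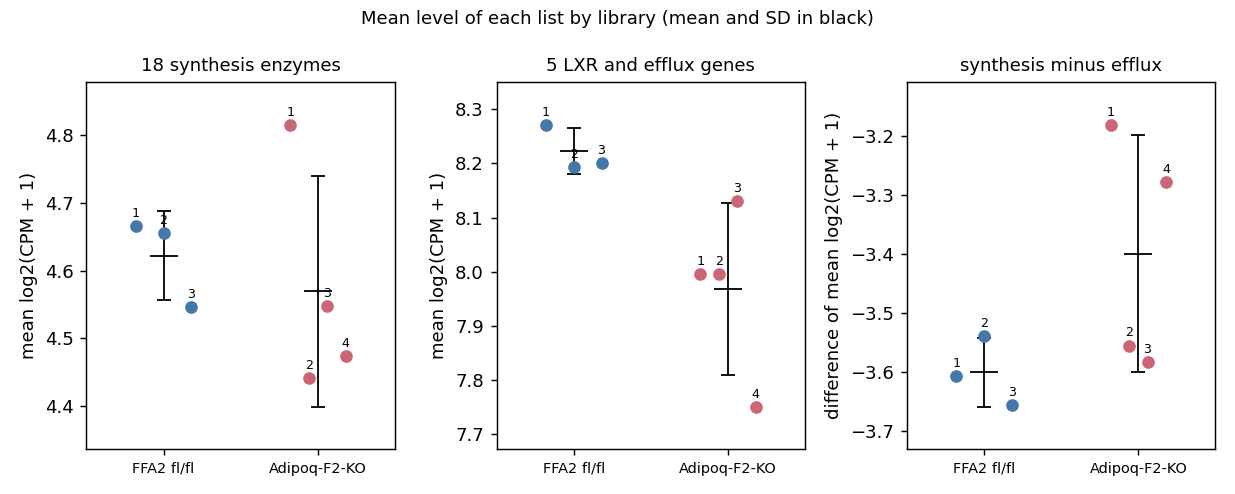
Mean log2(CPM + 1) per library of the 18 synthesis enzymes, of the 5 LXR and efflux genes, and their difference (vertical axes), numbered by replicate, with the mean and SD of each genotype in black. The means of the 5 LXR and efflux genes are 7.75 to 8.13 in the 4 Adipoq-F2-KO libraries. They lie below those of the 3 FFA2 fl/fl libraries (8.19 to 8.27), while the enzyme means and the difference overlap.

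Further genes of the same pathways were listed by role, 65 in all, of which 64 were tested and Hsd3b7 was at 0 in all libraries. Of these, 27 log2 fold changes lay above 0 and 37 below, with a median of -0.07. DESeq2 called 3 of the 64, against 6.54% of all genes with an adjusted p from that tool. edgeR called 1, higher in Adipoq-F2-KO, against 1.02% of all tested genes. The edgeR call was Arl4c, a small GTPase gene induced by LXRs. It stood at 1.60, 2.52 and 1.87 normalized CPM in the controls and 4.62, 4.25, 4.31 and 6.21 in the knockouts. Its log2 fold change was 1.27 (SE 0.26, edgeR adjusted p = 0.0484, DESeq2 adjusted p = 0.000646), opposite in sign to the 5 LXR and efflux genes above. With each library left out in turn the adjusted p of Arl4c ran from 0.0627 to 0.241, so the call was lost each time. These fits called from 1 to 178 genes in all, against 173 in the main fit. DESeq2 also called Nus1, a subunit of the dehydrodolichol synthase that draws on farnesyl diphosphate, with a log2 fold change of 0.52 (SE 0.11, edgeR adjusted p = 0.0511, DESeq2 adjusted p = 0.000901), and Gramd1a, a carrier of plasma membrane cholesterol to the endoplasmic reticulum, at 0.41 (SE 0.11, edgeR adjusted p = 0.0959, DESeq2 adjusted p = 0.0157). Lcat, the cholesterol esterifying enzyme of plasma (log2 fold change 1.18, edgeR adjusted p = 0.195), Ch25h, the cholesterol hydroxylase (0.95, edgeR adjusted p = 0.234), and Gramd1c (0.88, edgeR adjusted p = 0.471) did not overlap between genotypes either, at levels of at most 2.61 normalized CPM. Without overlap in all were 16 of the 64 (25.0%), 7 higher and 9 lower, against 17.6% of all tested genes. The 9 lower ones had log2 fold changes from -0.36 to -0.14, with adjusted p from 0.168 by edgeR, and include, named after their values were seen, the LXR partners Rxra (318 to 351 normalized CPM in the controls and 244 to 293 in the knockouts) and Rxrb (log2 fold change -0.36). By list, the median log2 fold change was -0.07 for 13 genes of SREBP processing and sterol-regulated degradation, -0.05 for 7 genes of isoprenoid side branches, -0.08 for 10 genes of lipoprotein receptors and lysosomal release, -0.11 for 14 genes of intracellular sterol transport and 0.02 for 15 LXR partners and targets. For the 5 tested genes of oxysterol and sterol sulfate metabolism, all but 1 of them above 0, it was 0.71, with intervals between -1.54 and 5.72.

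Several members share exon bases with other genes, and the strand setting of the counting is not stated. By GENCODE vM21, 10 of the 32 do, 7 with a gene on the opposite strand. Besides Fdft1 these include Cyp51, with 166 bases opposite Akap9 (84.7 to 111 normalized CPM), and Npc1, with 511 bases opposite Rmc1 (30.6 to 49.8). On the same strand, Tm7sf2 shares 532 bases with Vps51 (14.4 to 26.5), and reads over such bases cannot be given to 1 gene. Fdps shares 1124 with Gm43738, which was not found by symbol among the counted genes and so has no level here. The noncoding genes opposite Hmgcs1, Idi1, Lss, Npc1 and Scap had at most 0.373 normalized CPM in any library.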

How the data were processed

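Reads were trimmed (Trimmomatic), aligned (STAR) and assigned to genes (featureCounts) by the authors. The deposited values are these counts, raw whole numbers for each gene in each library, beside exon lengths and coordinates. Tool versions and counting options are not given in the sources used here. The labels name GRCm38, but the deposited coordinates of only 1 of the 32 genes overlapped it, so coordinates are quoted as deposited with the build unsettled. Poly-A selected stranded libraries were read as pairs of 150 bases, and 85.5% to 88.8% of counts from 1 to 49 were even, as when both mates are counted. At these depths, a gene at 0 counts can still stand at 0.150 to 0.197 CPM (a limit of 3 fragments, or 6 counts, for counting error only).

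From the deposited counts, edgeR 4.0.16 (R 4.3.3) was run with filterByExpr, TMM, glmQLFit and glmQLFTest, with genotype as the only term, two-sided, with Benjamini-Hochberg adjustment over 17039 genes. edgeR estimated a common biological coefficient of variation of 0.258. DESeq2 1.42.0 (the study's tool), RLE factors, a filter of at least 1 count, a replicate block and leaving out each library were alternatives. DESeq2 on every gene with a count was added after the data were seen. Libraries of one genotype differed by more than sampling noise (a chi-square of 39.7 to 163 per degree of freedom), and none was treated as a duplicate. The fits were tested on counts simulated at edgeR's own trended dispersions, with no spread of single genes about the trend. The mean share of false calls was 3.99% for edgeR and 15.0% for DESeq2, at a threshold of 0.05. Since the setting came from edgeR's fit and differs from the data, it cannot rank the tools here. Calls made by a single tool remain uncertain.

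The members, lists and comparisons were chosen with earlier results of these data known. Every member is named. Normalized CPM per library are given for members called by either tool, without overlap between genotypes, or among the 5 largest in CPM per kb or in size of log2 fold change, and for Mylip, chosen after its values were seen. Other pathway genes are named where called by either tool, or without overlap and with a log2 fold change of at least 0.5 in size. Some genes of the pathway are not reported here.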

Additional observations from a re-analysis of the deposited data

Results flagged for a closer look

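In 33 groups of 4 Adipoq-F2-KO libraries (32 genes and the difference of synthesis and efflux), 1 value stood apart from the others by Dixon's criterion. It was Mylip in Adipoq-F2-KO library 4, at 120.0 normalized CPM against 66.1 to 72.6 in the other 3 libraries, a gap of 0.879 of the whole range. Chance flags about 1 in 20 groups. The same library held the highest mitochondrial share of the 7 (10.3%) and the lowest Adipoq (2419 normalized CPM). Their part in the Mylip value was not tested.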

How the results depend on the processing

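No member was called in the main fit, with RLE factors, or with any library left out. DESeq2 and the filter of at least 1 count each called 1 higher and 2 lower, and DESeq2 on every gene with a count, chosen after seeing the data, called 0 higher and 2 lower. With a replicate block on libraries 1 to 3 of each genotype, dropping Adipoq-F2-KO library 4, edgeR called 0 higher and 0 lower. The same-numbered libraries correlated at 0.0958, -0.029 and -0.049 in their deviations from the genotype means, so the numbers were not taken as pairs. Under the replicate block the median of the LXR and efflux genes was -0.12 against -0.27, and leaving out libraries moved it between -0.40 (without Adipoq-F2-KO library 3) and -0.13 (without FFA2 fl/fl library 1). It was -0.14 without Adipoq-F2-KO library 4. The median of the synthesis enzymes stayed between -0.16 and 0.043. The mean difference of synthesis and efflux stayed higher in Adipoq-F2-KO than in FFA2 fl/fl libraries, by 0.13 to 0.26 with libraries left out. Of the other pathway genes, 1 was called in the main fit, 3 by either DESeq2 run, 2 with RLE factors, 4 with the filter of at least 1 count, 0 with the replicate block, and 0 to 1 with libraries left out. Over all genes, the main fit called 1.02%, the 2 DESeq2 runs 6.54% and 4.96%, and the filter of at least 1 count 4.92%. The cause was not tested.

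Of 384 member values over 12 alternatives, 26 in 9 genes changed sign, all of genes whose main log2 fold change was at most 0.15 in size and uncalled. With the replicate block these were Pmvk 0.018, Mvd 0.083, Tm7sf2 0.088 and Nsdhl -0.0012. Npc1 was 0.00031 with DESeq2 and 0.00048 with RLE factors. With libraries left out the log2 fold change ran from -0.29 to 0.056 for Pmvk, -0.18 to 0.091 for Mvd, -0.088 to 0.35 for Fdps, -0.40 to 0.15 for Tm7sf2, -0.13 to 0.065 for Msmo1, -0.19 to 0.12 for Nsdhl, -0.022 to 0.17 for Hsd17b7, -0.057 to 0.043 for Sc5d and -0.055 to 0.036 for Npc1. The other 23 members kept their sign. With 3 and 4 libraries the 95% intervals were 0.37 to 1.54 wide on the log2 scale, which limits what could be detected.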
